A study of Homo sapiens with 12 samples.

Results

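The expression of 34 genes of the hypoxia response and of glycolysis was followed in the U-87 MG line, an established culture of human glioma cells. The genes were chosen by name, as targets of the hypoxia-inducible factors (HIFs) and enzymes of glucose breakdown. They and the other gene lists below were chosen with earlier results of these data known, so their counts do not come from a blind choice. Of the 34, 33 were measured among the 19775 genes read by the arrays. The lactate exporter SLC16A3 (MCT4) was not analysed here. Each gene was read by the probe set with the highest mean over all 12 arrays among those that name this gene alone.

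A hairpin RNA against p105 (shp105) had been stably transfected into one line and a control hairpin (shControl) into the other. p105 is the NFKB1 product that is processed to the NF-kB subunit p50. Each line received 100 uM temozolomide (TMZ), a DNA-methylating drug used against glioma, or its vehicle DMSO, for 16 h. All 4 groups were grown in the same serum-containing medium, and the labels name no low-oxygen treatment. Each group had 3 arrays, called biological replicates in the labels, so n = 3 stands behind every group mean. The labels give 1 line per hairpin and do not say whether a line was a clone or a pool. The effect of the hairpin and other differences between the lines therefore cannot be told apart, and the p-values rest on the spread among these arrays alone.

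When oxygen is plentiful, prolyl hydroxylases of the EGLN family mark the HIF alpha subunits for destruction. When oxygen falls, these subunits accumulate, pair with ARNT and bind short DNA motifs near their targets. The targets raise glucose uptake and glycolysis, divert pyruvate away from the mitochondria through the pyruvate dehydrogenase kinases, and include secreted vessel factors and mitophagy receptors. Glioma cells often keep part of this program active in ample oxygen, and NF-kB is one of the factors known to act on HIF1A transcription.

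The arrays resembled each other closely, with median log2 levels of 5.04 to 5.09 and correlations across probe sets of 0.996 to 0.998 within groups and 0.990 to 0.992 between the lines. VIM, CD44, TNC and S100A6, markers of mesenchymal glioma cells, had mean log2 levels of 14.77, 12.83, 11.63 and 14.23. The astrocyte and glioma markers GFAP (5.11), OLIG2 (4.68) and NES (5.23) were below the median gene level of 6.34. CHI3L1 was below it in shControl cells (4.71 with DMSO and 4.46 with TMZ) and above it in shp105 cells (6.91 and 7.42). The leukocyte markers PTPRC (3.06) and CD14 (3.56) lay within the range of the 27 background control probe sets, 2.51 to 4.06. So did the epithelial markers CDH1 (3.32) and KRT14 (3.33) and the endothelial marker CDH5 (3.25). The other markers of those types lay above that range and below the median gene. They were CD3E (5.78), AIF1 (5.53), ITGAM (5.41), EPCAM (5.23), KRT5 (4.81), PECAM1 (5.84) and VWF (4.65). The neuronal markers RBFOX3 (4.79) and SYP (5.07) did too, and SNAP25 was brighter, at 8.57. Between the lines, CHI3L1 (log2 difference 2.21 in DMSO and 2.96 in TMZ) and OLIG2 (1.22 and 1.37) were higher and CD44 (-0.25 and -0.32), EPCAM (-0.39 and -0.45) and SNAP25 (-0.50 and -0.38) lower in shp105 cells. These 5 of the 23 measured markers passed under both treatments, and their part in the results below was not tested. NFKB1, the hairpin's target, was lower in the line labelled shp105 by less than the test could call in DMSO, at -0.12 on the log2 scale (SE 0.07, adjusted p = 0.260). In TMZ the difference was -0.25 (SE 0.07, adjusted p = 0.0204). The TMZ call was lost without shControl_TMZ replicate 1 (0.0903) or 2 (0.0684) or shp105_TMZ replicate 1 (0.0600) or 3 (0.0585). Fitting only the compared groups also ended it (adjusted p = 0.0558). So did adding the level of spiked RNAs, described next, to the model (-0.18, adjusted p = 0.565).

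Technical measures also differed between the groups. The mean log2 level of the 18 hybridization spike-in probe sets was 10.63 (SD 0.05, n = 3) in shControl cells with DMSO and 10.95 (SD 0.09, n = 3) with TMZ. The shp105 cells had 11.13 (SD 0.10, n = 3) with DMSO and 11.32 (SD 0.13, n = 3) with TMZ. The GAPDH 3′ control probe sets exceeded the 5′ ones by 0.25, 0.30, 0.36 and 0.40 in the same order of groups. The same difference for ACTB did not follow that order, at 3.02, 2.85, 3.07 and 3.06. Results of a fit that includes the spike-in level are given beside the counts below.

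Promoter sequences are shown for genes that moved between the lines, because the core letters of the HIF-binding motif, ACGTG and GCGTG, can be read there directly. Of the 34 genes, 30 had an entry in the RefSeq promoter table (GRCh38.p14), and SLC2A3, VEGFA, BNIP3L and NDRG1 did not. The 250 bases before 1 annotated start per gene were searched on both strands. For some genes, among them GPI, KDM3A, PFKFB4 and PGAM1, this window lay inside the gene's full annotated span, and other starts were not searched. Capitals mark each ACGTG or GCGTG, or its reverse complement (CACGT or CACGC), and a CACGTG palindrome counts on both strands. ANKRD37 (chr4:185396591-185396840 on the plus strand) held 3 matches, at 143 to 162 bases before the start. BNIP3 (chr10:131981924-131982173 on the minus strand) held 6, at 104 to 143 bases. PDK3 (chrX:24465036-24465285 on the plus strand) held 2, and ANGPTL4 (chr19:8363905-8364154 on the plus strand) held 1, at 234 bases. SLC2A1 (chr1:42958869-42959118 on the minus strand), which encodes the transporter GLUT1, held none in this window.
ANKRD37: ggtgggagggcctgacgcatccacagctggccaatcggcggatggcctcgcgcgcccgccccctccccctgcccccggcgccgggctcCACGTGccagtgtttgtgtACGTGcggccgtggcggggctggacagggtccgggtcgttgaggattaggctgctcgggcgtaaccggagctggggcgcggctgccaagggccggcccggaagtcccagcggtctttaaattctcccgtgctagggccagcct
BNIP3: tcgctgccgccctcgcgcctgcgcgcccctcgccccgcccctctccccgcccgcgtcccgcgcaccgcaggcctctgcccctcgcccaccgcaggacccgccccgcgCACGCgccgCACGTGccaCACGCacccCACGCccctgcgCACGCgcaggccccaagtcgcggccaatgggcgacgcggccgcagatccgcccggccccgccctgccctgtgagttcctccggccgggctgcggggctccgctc
PDK3: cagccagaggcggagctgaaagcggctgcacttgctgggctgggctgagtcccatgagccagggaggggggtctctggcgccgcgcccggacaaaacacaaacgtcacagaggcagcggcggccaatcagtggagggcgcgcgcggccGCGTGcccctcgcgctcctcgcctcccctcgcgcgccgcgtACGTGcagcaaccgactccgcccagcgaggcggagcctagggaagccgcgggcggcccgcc
ANGPTL4: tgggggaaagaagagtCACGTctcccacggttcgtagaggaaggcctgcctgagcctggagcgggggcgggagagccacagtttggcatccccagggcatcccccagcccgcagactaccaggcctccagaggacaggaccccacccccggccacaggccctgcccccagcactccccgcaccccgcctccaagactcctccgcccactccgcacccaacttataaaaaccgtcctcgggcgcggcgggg
SLC2A1: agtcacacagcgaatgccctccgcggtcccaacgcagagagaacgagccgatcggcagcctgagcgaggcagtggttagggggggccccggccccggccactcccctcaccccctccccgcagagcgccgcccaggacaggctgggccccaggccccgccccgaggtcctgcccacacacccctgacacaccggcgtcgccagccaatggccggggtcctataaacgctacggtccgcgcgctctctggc

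ACGTG was present in 13 of the 30 windows, or 43.3%, beside 18.7% of all 27305 promoters of the same length. GCGTG was present in 36.7% beside 31.9%, and at least one of the motifs in 63.3% beside 43.1%. A kappaB site, the motif bound by NF-kB, was matched in 3 of the 30, or 10%, beside 9.57% of all promoters. The genes were chosen by name as HIF targets and enzymes of glucose breakdown, so the share with ACGTG is not an independent result. What it stems from was not tested. Among the 12 genes with a window that were higher in shp105 cells in DMSO, 8 held ACGTG. Of the 2 that were lower it was 1, and of the 15 that did not pass it was 4. PDK1 and SLC2A1, with line differences among the largest, held neither motif in this window, and LDHA held 5 matches with a small difference. No test was made of these shares.

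In DMSO, 17 of the 33 genes passed the test between the lines (limma's moderated test, adjusted p under 0.05 over all genes). That is 51.5%, beside 19.9% of all genes. Only 2 of the 33 had a mean level below the median gene level of 6.34, and dim genes were kept among all genes. The share among brighter genes is not given here, and the part of expression level in this contrast was not tested. Of the 17, 14 were higher in shp105 cells, with 8.34% of all genes higher, and 3 were lower, with 11.6% of all genes lower. Both glucose transporters among the 33 and the 3 enzymes of pyruvate fate were higher. So were both collagen prolyl hydroxylases and the hypoxia genes BNIP3, ANKRD37 and NDRG1. The secreted factors ANGPTL4 and VEGFA and the demethylase KDM3A were lower. The median log2 difference was 0.11 over the 33 genes and -0.01 over all genes, and the range of the 33 was -0.75 to 1.14. The arrays of the lines did not overlap for 25 of the 33 genes (20 higher, 5 lower), beside 35.9% of all genes (15.1% higher, 20.8% lower).

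In TMZ, 14 of the 33 genes passed between the lines, or 42.4%, beside 21.1% of all genes. 11 were higher (10.1% of all genes) and 3 were lower (11% of all genes). The median log2 difference was 0.10 over the 33 genes and -0.01 over all genes. The arrays did not overlap for 24 of the 33 (20 higher, 4 lower), beside 35.7% of all genes (17.2% higher, 18.5% lower). Under both treatments 19 genes were higher without overlap, beside 10.4% of all genes, and 4 were lower, beside 12.9%. The lines were compared on separate arrays under the 2 treatments, and 12 genes passed under both, 10 higher and 2 lower. PFKP, PGK1, LDHA, P4HA1 and VEGFA passed in DMSO but not in TMZ, and HK2 and EGLN1 passed in TMZ but not in DMSO. The difference between these differences is the difference of the TMZ responses, in which none of the 33 passed. All 19 genes that passed at least once had the same sign under both treatments, as had 27 of the 33. The shares of all genes that passed under both treatments, or kept their sign, are not given here. Whether such agreement is particular to these genes was not tested.

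**Figure D1:**
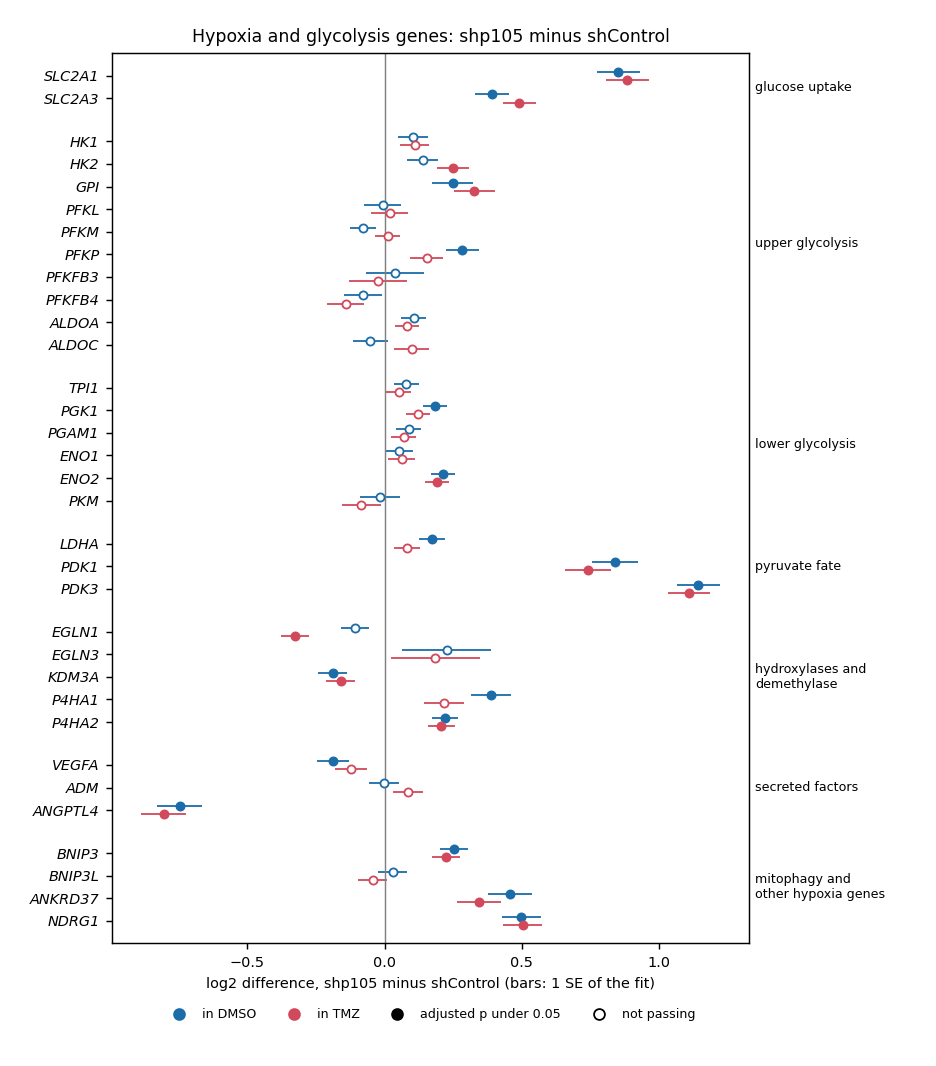
Log2 difference between shp105 and shControl cells (horizontal axis) for each of the 33 measured genes, ordered by role, in DMSO and in TMZ. Filled points passed at adjusted p under 0.05, open points did not, and bars are 1 SE of the fit; PDK3 lies farthest right at 1.14 and 1.11 and ANGPTL4 farthest left at -0.75 and -0.81.

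In a fit with the spike-in mean as covariate, 3 genes passed in DMSO (SLC2A1, PDK1 and PDK3) and 5 in TMZ (these 3, SLC2A3 and ANGPTL4). The shares of all genes above come from the fit without the covariate, and those with it are not given here. All differences called above kept their sign in that fit. Their median size was 0.44 in DMSO, from 0.28 without the covariate, and 0.42 in TMZ, from 0.34, while the median SE was 2.49-fold and 1.99-fold larger. Some differences became smaller with the covariate. The largest such changes were those of VEGFA in DMSO (-0.19 to -0.08), BNIP3 (0.25 to 0.14 in DMSO, 0.22 to 0.14 in TMZ) and PDK3 (1.14 to 0.77 and 1.11 to 0.83). NDRG1 (0.50 to 0.45 in DMSO, 0.50 to 0.47 in TMZ) and EGLN1 in TMZ (-0.33 to -0.28) shrank less. So did KDM3A and P4HA2 under both treatments, and LDHA and PGK1 in DMSO. The part of the GAPDH 3′ to 5′ difference in these results was not tested.

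Glucose enters these cells through facilitative transporters, and both measured members were higher in shp105 cells. SLC2A1 (GLUT1), the widespread basal transporter, read 7.13, 6.91 and 7.04 on the shControl arrays with DMSO and 7.86, 7.88 and 7.88 on the shp105 arrays. With TMZ it read 6.89, 7.04 and 6.84 in shControl and 7.79, 7.71 and 7.94 in shp105 cells. Every shp105 array was above every shControl array. The line difference was 0.85 (SE 0.08, adjusted p = 1.06e-05) in DMSO, 1.80-fold higher, and 0.88 (SE 0.08, adjusted p = 7.82e-06) in TMZ, 1.85-fold higher.

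SLC2A3 (GLUT3), the high-affinity transporter typical of neurons, read 8.60, 8.59 and 8.67 in shControl and 8.98, 9.04 and 9.01 in shp105 cells with DMSO. On TMZ the values were 8.56, 8.42 and 8.50 in shControl and 8.87, 9.05 and 9.02 in shp105 cells. The ranges of the lines were again apart. The difference was 0.39 (SE 0.06, adjusted p = 0.000662) in DMSO and 0.49 (SE 0.06, adjusted p = 0.000116) in TMZ. Its probe set may share signal with SLC2A14, a near-identical copy, so the size is uncertain. The other SLC2A3 probe sets gave 0.92 and 0.81 in DMSO and 1.02 and 0.57 in TMZ, each passing over all probe sets.

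Glycolysis splits glucose in its upper, energy-consuming steps, and 2 of the 10 genes listed there passed under each treatment, both higher, beside 8.34% of all genes higher in DMSO and 10.1% in TMZ. GPI, which isomerizes glucose 6-phosphate, read 10.84, 10.80 and 10.91 in shControl and 11.03, 11.24 and 11.02 in shp105 cells with DMSO. The TMZ arrays read 10.73, 10.83 and 10.82 in shControl and 11.01, 11.21 and 11.15 in shp105 cells. The differences were 0.25 (SE 0.07, adjusted p = 0.0342) and 0.33 (SE 0.07, adjusted p = 0.00759), with the lines apart under both treatments. The DMSO call was lost without shControl_DMSO replicate 1 (adjusted p = 0.0904), shControl_DMSO replicate 2 (0.108) or shp105_DMSO replicate 2 (0.125).

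PFKP, the platelet form of phosphofructokinase, passed in DMSO only, with 0.28 (SE 0.06, adjusted p = 0.00546). It read 10.52, 10.49 and 10.61 in shControl cells with DMSO and 10.70, 10.76 and 10.71 with TMZ, and the shp105 cells had 10.80, 10.90 and 10.77 with DMSO and 10.79, 10.90 and 10.95 with TMZ. The ranges of the lines were apart under both treatments, and in TMZ the difference was 0.15 (SE 0.06, adjusted p = 0.0963). The muscle and liver forms had differences of -0.08 (adjusted p = 0.309) for PFKM and -0.01 (adjusted p = 0.963) for PFKL in DMSO.

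HK2, the inducible hexokinase that traps glucose in the cell, read 10.82, 10.80 and 10.86 in shControl and 10.98, 10.93 and 10.98 in shp105 cells with DMSO. Under TMZ the levels were 10.68, 10.76 and 10.67 in shControl and 10.86, 10.94 and 11.05 in shp105 cells. Every shp105 array was higher than the shControl arrays under the same treatment. The difference was 0.14 (SE 0.06, adjusted p = 0.123) in DMSO, short of the threshold, and 0.25 (SE 0.06, adjusted p = 0.00833) in TMZ, which passed. A second, dimmer HK2 probe set passed under both, at 0.44 and 0.41. HK1, the constitutive form, had 0.10 (adjusted p = 0.230) and 0.11 (adjusted p = 0.191). PFKFB3 and PFKFB4, which make the activator of phosphofructokinase, and the aldolases ALDOA and ALDOC did not pass in either comparison, with differences between -0.14 and 0.11. The triose isomerase TPI1 had 0.08 (adjusted p = 0.299) in DMSO.

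**Figure D2:**
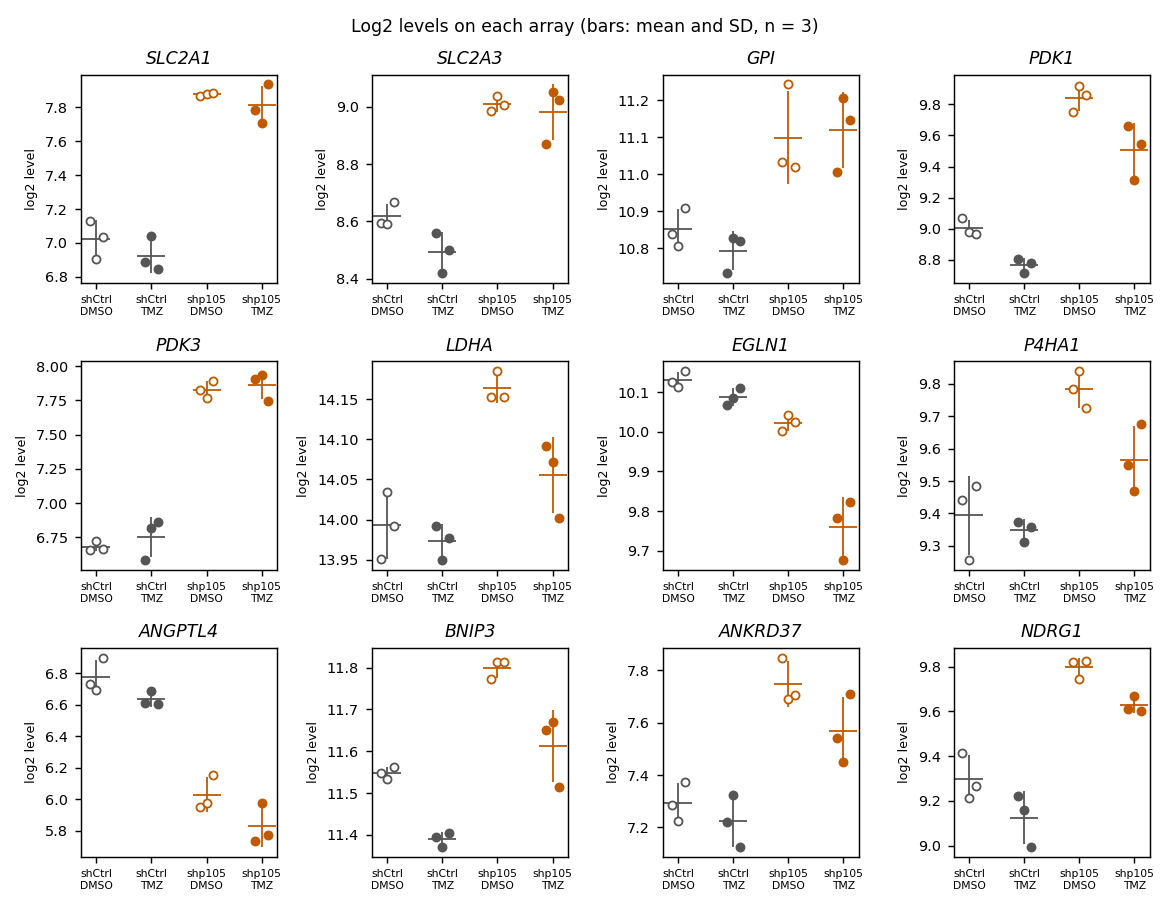
Log2 level of 12 genes on each array (vertical axis, its range differs between panels) in the 4 groups, with the mean and SD of 3 arrays. Grey points are shControl and orange points shp105 arrays, open with DMSO and filled with TMZ; SLC2A1 lies at 6.84 to 7.13 in shControl and 7.71 to 7.94 in shp105 cells.

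Of the 6 genes of the lower, energy-yielding steps, 2 were higher in DMSO, beside 8.34% of all genes, and 1 in TMZ, beside 10.1%. ENO2, the neuron-specific enolase, read 10.31, 10.35 and 10.30 in shControl and 10.52, 10.55 and 10.52 in shp105 cells with DMSO. On TMZ it read 10.39, 10.42 and 10.41 in shControl and 10.60, 10.60 and 10.60 in shp105 cells. The arrays of a group were nearly equal, and the differences of 0.21 (SE 0.04, adjusted p = 0.00409) and 0.19 (SE 0.04, adjusted p = 0.00758) passed under both treatments. The ubiquitous enolase ENO1 had 0.05 (adjusted p = 0.524) and 0.06 (adjusted p = 0.432). One other ENO1 probe set had the opposite sign in DMSO, -0.34 (SE 0.08, adjusted p = 0.0170) over all probe sets.

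PGK1, which makes the first ATP of the pathway, read 13.31, 13.33 and 13.29 in shControl and 13.49, 13.53 and 13.47 in shp105 cells with DMSO. The difference there was 0.18 (SE 0.04, adjusted p = 0.0116), and in TMZ it was 0.12 (adjusted p = 0.0794). All 5 other PGK1 probe sets had the same sign in DMSO, and 1 passed over all probe sets, at 0.31 (SE 0.06, adjusted p = 0.00702). The brightest of the 5 gave 0.03 (SE 0.07, adjusted p = 0.890). PGAM1 and PKM, which catalyse later steps up to pyruvate, had 0.09 (adjusted p = 0.233) and -0.02 (adjusted p = 0.926) in DMSO. GAPDH, the enzyme just before PGK1 and not one of the 34, had -0.02 in DMSO and -0.00 in TMZ and did not pass.

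Pyruvate is either reduced to lactate or oxidized by pyruvate dehydrogenase, which the PDK kinases switch off. The largest line difference among the 33 genes was that of PDK3, a kinase isoform with restricted tissue expression. PDK3 read 6.66, 6.72 and 6.67 in shControl and 7.82, 7.76 and 7.89 in shp105 cells with DMSO. With the drug it read 6.58, 6.82 and 6.86 in shControl and 7.91, 7.93 and 7.74 in shp105 cells. No array of either line came within the range of the other. The difference was 1.14 (SE 0.08, adjusted p = 8.89e-07) in DMSO, 2.21-fold higher, and 1.11 (SE 0.08, adjusted p = 1.25e-06) in TMZ, 2.16-fold higher. All 5 PDK3 probe sets passed over all probe sets, with 0.66 to 1.43 in DMSO and 0.44 to 1.28 in TMZ.

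PDK1, the isoform best known as a HIF target, read 9.07, 8.98 and 8.96 in shControl and 9.75, 9.92 and 9.86 in shp105 cells with DMSO. With TMZ it read 8.80, 8.71 and 8.78 in shControl and 9.66, 9.31 and 9.55 in shp105 cells. The lines were apart under both treatments, and in each line the TMZ arrays lay below the DMSO arrays. The line difference was 0.84 (SE 0.08, adjusted p = 1.97e-05) in DMSO, 1.79-fold higher, and 0.74 (SE 0.08, adjusted p = 5.24e-05) in TMZ, 1.67-fold higher. A second PDK1 probe set gave 0.85 and 0.82, and the dimmest gave -0.10 in TMZ without passing.

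LDHA, which turns pyruvate into lactate, read 13.95, 14.03 and 13.99 in shControl and 14.15, 14.19 and 14.15 in shp105 cells with DMSO, a difference of 0.17 (SE 0.05, adjusted p = 0.0247). On TMZ the values were 13.99, 13.95 and 13.98 in shControl and 14.09, 14.07 and 14.00 in shp105 cells, with 0.08 (adjusted p = 0.271). The ranges did not overlap, although the lowest shp105 array on TMZ lay just above the shControl arrays. The DMSO call was lost without shControl_DMSO replicate 1 (adjusted p = 0.0939) or 3 (0.0665), or without shp105_DMSO replicate 1 (0.0598), 2 (0.0745) or 3 (0.0602).

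Of the 5 oxygen-sensing and other dioxygenases, 2 were higher and 1 lower in DMSO, and 1 was higher and 2 lower in TMZ. The shares of all genes were 8.34% higher and 11.6% lower in DMSO, and 10.1% and 11% in TMZ. EGLN1 (PHD2), the main HIF prolyl hydroxylase, read 10.13, 10.11 and 10.15 in shControl and 10.00, 10.04 and 10.03 in shp105 cells with DMSO, a difference of -0.11 (adjusted p = 0.176) that did not pass. The TMZ arrays read 10.07, 10.08 and 10.11 in shControl and 9.78, 9.68 and 9.82 in shp105 cells, and the difference of -0.33 (SE 0.05, adjusted p = 0.000609) passed. The lowest levels were thus those of shp105 cells on TMZ. 1 of the other EGLN1 probe sets gave 0.06 in TMZ, so the direction was not shared by all of them. The mean of the gene's probe sets gave -0.11, which did not pass (adjusted p = 0.193). EGLN3, the inducible paralog, lay near the background controls and had 0.23 (adjusted p = 0.412) and 0.18 (adjusted p = 0.496).

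P4HA1, which hydroxylates collagen prolines in the endoplasmic reticulum, read 9.44, 9.26 and 9.49 in shControl and 9.78, 9.84 and 9.73 in shp105 cells with DMSO. Under TMZ the levels were 9.38, 9.31 and 9.36 in shControl and 9.55, 9.47 and 9.67 in shp105 cells. The lines were apart under both treatments. The difference was 0.39 (SE 0.07, adjusted p = 0.00232) in DMSO, and 0.22 (SE 0.07, adjusted p = 0.0547) in TMZ, which did not pass. The other P4HA1 probe set lay at background level, and the mean of both gave 0.16 in DMSO, which did not pass (adjusted p = 0.0923). Its paralog P4HA2 passed under both treatments, with 0.22 (SE 0.05, adjusted p = 0.00690) and 0.21 (SE 0.05, adjusted p = 0.00922). The histone demethylase KDM3A was lower, with -0.19 (SE 0.05, adjusted p = 0.0239) and -0.16 (SE 0.05, adjusted p = 0.0489). Its DMSO call was lost without any one of the 6 DMSO arrays (adjusted p = 0.0501 to 0.0745). Its TMZ call was lost without any one array except shControl_TMZ replicate 3 (0.0530 to 0.172). The mean of its probe sets gave -0.11 in DMSO, which did not pass (adjusted p = 0.139).

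None of the 3 secreted factors was higher in shp105 cells, beside 8.34% of all genes in DMSO and 10.1% in TMZ. In DMSO 2 were lower, beside 11.6% of all genes, and in TMZ 1, beside 11%. ANGPTL4, an inhibitor of lipoprotein lipase induced by hypoxia and by PPAR factors, read 6.73, 6.70 and 6.90 in shControl and 5.95, 5.98 and 6.16 in shp105 cells with DMSO. With the drug it read 6.61, 6.69 and 6.61 in shControl and 5.74, 5.98 and 5.77 in shp105 cells. Every shp105 array was below every shControl array. The difference was -0.75 (SE 0.08, adjusted p = 4.82e-05) in DMSO, 1.68-fold lower, and -0.81 (SE 0.08, adjusted p = 2.55e-05) in TMZ, 1.75-fold lower. The other ANGPTL4 probe set gave -0.42 and -0.48, both passing.

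VEGFA, the main angiogenic growth factor, read 11.36, 11.50 and 11.32 in shControl and 11.22, 11.22 and 11.17 in shp105 cells with DMSO. With TMZ it read 11.17, 11.16 and 11.22 in shControl and 11.00, 11.10 and 11.09 in shp105 cells. The lines were apart under both treatments, with shp105 lower. The difference was -0.19 (SE 0.06, adjusted p = 0.0370) in DMSO and -0.12 (SE 0.06, adjusted p = 0.168) in TMZ, where it did not pass. The DMSO call was lost without shControl_DMSO replicate 1 (adjusted p = 0.0644) or 2 (0.142), shControl_TMZ replicate 1 (0.0555) or 2 (0.0507), or shp105_DMSO replicate 1 (0.0770), 2 (0.0730) or 3 (0.116). Another VEGFA probe set gave 0.06 in DMSO, and the mean of all 4 gave -0.11, which did not pass (adjusted p = 0.171). In TMZ 1 of the other probe sets passed over all probe sets, at -0.44 (SE 0.11, adjusted p = 0.0166). The vasodilator peptide gene ADM had -0.00 (adjusted p = 0.978) and 0.08 (adjusted p = 0.332).

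Among the mitophagy receptors and other hypoxia genes, 3 of 4 were higher under both treatments, beside 8.34% of all genes higher in DMSO and 10.1% in TMZ. NDRG1, a stress-responsive gene, read 9.42, 9.21 and 9.27 in shControl and 9.82, 9.75 and 9.82 in shp105 cells with DMSO. On TMZ the values were 9.22, 9.16 and 8.99 in shControl and 9.61, 9.67 and 9.60 in shp105 cells. The lines were apart, and the difference was 0.50 (SE 0.07, adjusted p = 0.000333) in DMSO and 0.50 (SE 0.07, adjusted p = 0.000306) in TMZ. ANKRD37, a small ankyrin-repeat HIF target, read 7.28, 7.22 and 7.37 in shControl and 7.85, 7.69 and 7.71 in shp105 cells with DMSO. The TMZ arrays read 7.22, 7.32 and 7.13 in shControl and 7.54, 7.45 and 7.71 in shp105 cells, and its lines were apart under both treatments. Its difference was 0.46 (SE 0.08, adjusted p = 0.00161) and 0.34 (SE 0.08, adjusted p = 0.00931), and its other probe set lay at background level. The mean of both gave 0.26 in DMSO (adjusted p = 0.0429) and 0.15 in TMZ, which did not pass (adjusted p = 0.243).

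Of the paralogous mitophagy receptors, BNIP3 passed and BNIP3L (NIX) did not. BNIP3 read 11.55, 11.53 and 11.56 in shControl and 11.77, 11.81 and 11.81 in shp105 cells with DMSO. On TMZ it read 11.39, 11.37 and 11.40 in shControl and 11.65, 11.67 and 11.51 in shp105 cells, so the lines did not overlap. Its line difference was 0.25 (SE 0.05, adjusted p = 0.00448) and 0.22 (SE 0.05, adjusted p = 0.00901). BNIP3L had 0.03 (adjusted p = 0.786) and -0.04 (adjusted p = 0.629) under the same treatments. Another BNIP3L probe set passed, at 0.26 and 0.29, so the paralogs cannot be said to differ from these arrays.

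Over all 33 genes, 75 probe sets name a single gene of the set, and 23 genes have more than 1. In DMSO, 13 of the called genes had other probe sets, which all had the same sign for 11. In TMZ it was 8 of 11. Among the agreeing genes in DMSO, the only other probe set of SLC2A1, PFKP, KDM3A and ANKRD37 lay within the background controls, at means of 2.92 to 3.74. The same held for SLC2A1 and KDM3A among those in TMZ. A sign at that level says nothing about the gene. None of the called genes had another probe set that passed in the opposite direction.

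**Figure D3:**
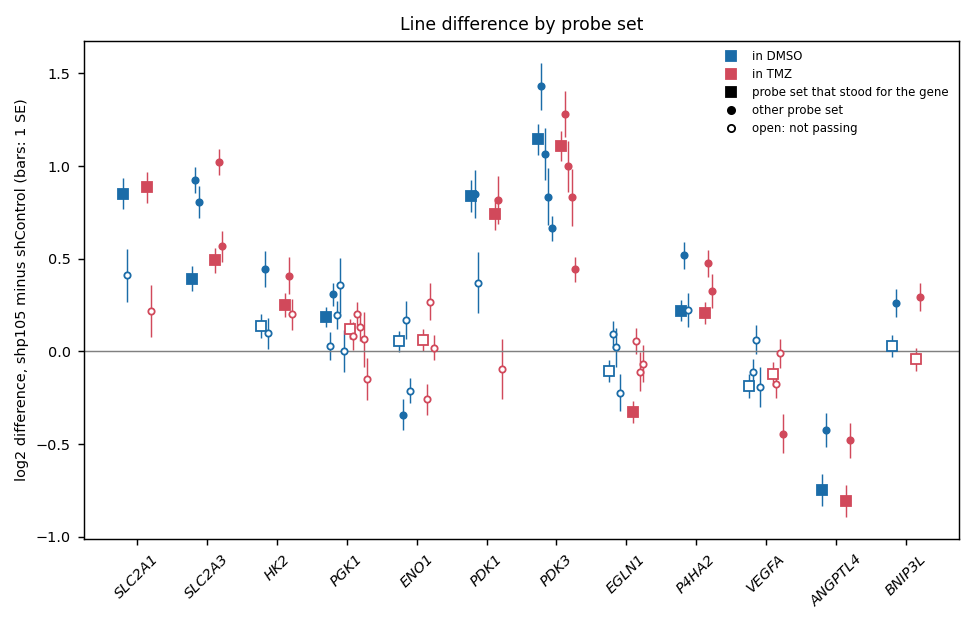
Log2 difference between the lines (vertical axis) for every probe set of 12 genes, in DMSO and in TMZ, with bars of 1 SE. Squares are the probe sets used for the genes, circles the others, and open symbols did not pass over all probe sets; the 5 PDK3 probe sets all lie above 0, at 0.66 to 1.43 in DMSO.

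Few of these genes passed for TMZ against DMSO. In shControl cells 0 of the 33 genes passed between TMZ and DMSO, beside 0.369% of all genes, with 6 at an unadjusted p under 0.05, beside 2180 of the 19775 genes. Among all genes 0.253% were higher and 0.116% lower. In shp105 cells 1 passed, EGLN1, which was lower, beside 0.865% of all genes (0.647% higher, 0.217% lower), with 10 at an unadjusted p under 0.05, beside 3225 of the 19775 genes. The log2 differences of the 33 ran from -0.24 to 0.18 in shControl cells and from -0.34 to 0.11 in shp105 cells. The widest 95% intervals reached -0.42 and 0.44 in shControl cells and -0.52 and 0.40 in shp105 cells, so larger changes lie outside every interval.

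EGLN1 fell in shp105 cells on TMZ, with -0.26 (SE 0.05, adjusted p = 0.0387) on the log2 scale, 1.20-fold lower, and in shControl cells it had -0.04 (adjusted p = 0.810). The call in shp105 cells was lost without any one of the 12 arrays, with adjusted p-values from 0.0521 to 0.127. Of its other probe sets, the 2 above background level gave -0.19 (SE 0.07, adjusted p = 0.314) and -0.10 (SE 0.10, adjusted p = 0.740) over all probe sets, and the mean of all 4 gave -0.10 (adjusted p = 0.459). The difference of the responses was -0.22 (SE 0.07, adjusted p = 0.679), which did not pass. PDK1 had -0.24 (SE 0.08, adjusted p = 0.311) in shControl and -0.34 (SE 0.08, adjusted p = 0.0778) in shp105 cells, VEGFA -0.21 (SE 0.06, adjusted p = 0.204) and -0.14 (SE 0.06, adjusted p = 0.255), and BNIP3 -0.16 (SE 0.05, adjusted p = 0.284) and -0.19 (SE 0.05, adjusted p = 0.108); none of them passed.

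The TMZ and DMSO arrays did not overlap for 15 of the 33 genes in shControl cells (5 higher, 10 lower), beside 20.3% of all genes (9.21% higher, 11.1% lower). In shp105 cells it was 14 (4 higher, 10 lower), beside 20.4% (12.5% higher, 7.86% lower). The arrays of the 4 genes above and of BNIP3L did not overlap between TMZ and DMSO in either line, with the TMZ arrays lower. That held for 5 of the 33 genes, beside 2.77% of all genes. Their other probe sets did not all go the same way. In shControl cells 0 of 3 for VEGFA, 0 of 2 for PDK1 and 1 of 3 for EGLN1 shared the sign. In shp105 cells it was 3 of 3, 2 of 2 and 2 of 3. The other probe set of BNIP3 and that of BNIP3L shared it in both lines. None with the opposite sign passed over all probe sets. ALDOA, ENO1 and ENO2 had TMZ arrays above all DMSO arrays in both lines, 3 of 33, beside 3.22% of all genes.

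**Figure D4:**
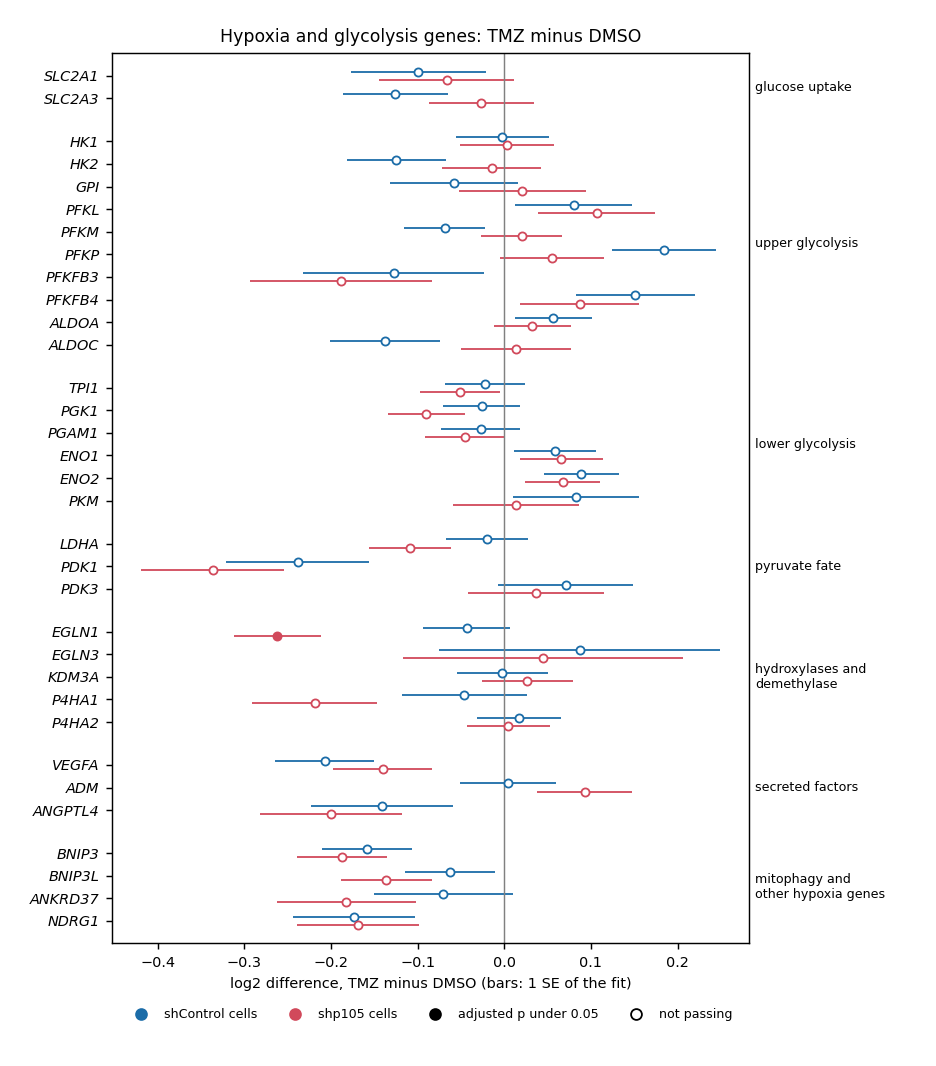
Log2 difference between TMZ and DMSO (horizontal axis) for each of the 33 genes, in shControl and in shp105 cells, with bars of 1 SE. EGLN1 in shp105 cells, at -0.26, is the only filled point, and the open points did not pass at adjusted p under 0.05.

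In the test of the difference between the TMZ responses of the lines, 0 of the 33 genes passed with limma. The smallest adjusted p was 0.679, 1 gene had an unadjusted p under 0.05, and 0% of all genes passed, with 1266 at an unadjusted p under 0.05. The differences ran from -0.22 to 0.15, and their 95% intervals reached -0.54 and 0.46, so differences up to that size could go unseen.

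Of 13 HIF subunits and regulators, 1 was higher and 3 were lower in shp105 cells in DMSO, and 2 and 3 in TMZ. Those are 4 and 5 of 13, beside 19.9% and 21.1% of all genes. The TMZ count was 2 without shControl_TMZ replicate 1 or shp105_TMZ replicate 3 and 3 without shp105_TMZ replicate 1. Their median difference was -0.09 in DMSO and 0.02 in TMZ. HIF1A, the oxygen-regulated subunit, was higher by 0.22 (SE 0.05, adjusted p = 0.00881) in DMSO and 0.20 (SE 0.05, adjusted p = 0.0176) in TMZ. The TMZ call was lost without shControl_TMZ replicate 1 (adjusted p = 0.0758) or 2 (0.0663) or shp105_TMZ replicate 1 (0.0546) or 3 (0.0568). CITED2, which competes with HIF for its coactivators, was lower, at -0.64 (SE 0.08, adjusted p = 0.000159) and -0.50 (SE 0.08, adjusted p = 0.000968). HIF1AN (FIH), the asparaginyl hydroxylase that blocks HIF activity, was lower, at -0.26 (SE 0.07, adjusted p = 0.0138) and -0.36 (SE 0.07, adjusted p = 0.00211), and the DMSO call was lost without shControl_DMSO replicate 3 (0.0621) or shp105_DMSO replicate 1 (0.0622). The ARNT paralog ARNT2 was lower, at -0.62 (SE 0.11, adjusted p = 0.00139) in DMSO. PPARGC1A, a coactivator of mitochondrial genes, was higher in TMZ by 0.44 (SE 0.11, adjusted p = 0.0144), lost without shControl_TMZ replicate 1 (0.0570) or shp105_TMZ replicate 3 (0.0523). EPAS1 (HIF-2 alpha) had 0.02 (adjusted p = 0.810) and 0.12 (adjusted p = 0.0900). No HIF protein was measured.

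Of 34 other HIF-responsive genes, 16 were higher and 2 lower in shp105 cells in DMSO, and 15 and 2 in TMZ. Of all genes 8.34% were higher and 11.6% lower in DMSO, and 10.1% and 11% in TMZ. With an array left out 15 to 18 of the 34 passed in DMSO and 16 to 20 in TMZ. Their median difference was 0.07 in DMSO and 0.18 in TMZ. The 4 with the smallest p were the same under both treatments. Glycogen phosphorylase PYGL was lower, at -2.78 (SE 0.10, adjusted p = 6.36e-09) and -3.10 (SE 0.10, adjusted p = 2.18e-09). The mitochondrial adenylate kinase AK4 was higher by 1.37 (SE 0.05, adjusted p = 6.53e-09) and 1.38 (SE 0.05, adjusted p = 5.47e-09), and the collagen crosslinkers LOXL2 and LOX by 1.29 and 0.76 in DMSO. With the spike-in covariate 5 of the 34 passed in DMSO and 11 in TMZ, and the shares of all genes with it are not given here. In the other 3 lists that fit called 0 genes in DMSO. In TMZ it called 0 of the HIF regulators, 1 of the glycolysis genes and 1 of the pyruvate genes.

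Of 21 other glycolysis and glucose transport genes, 3 were higher and 2 lower in DMSO, and 4 and 2 in TMZ. Those are 5 and 6 of 21, beside 19.9% and 21.1% of all genes. The TMZ count was 3 without shControl_TMZ replicate 2. Their median difference was -0.02 in DMSO and -0.00 in TMZ. PFKFB2, which makes the activator of phosphofructokinase, was higher by 0.36 (SE 0.06, adjusted p = 0.00144) and 0.43 (SE 0.06, adjusted p = 0.000435). The hexokinase-like HKDC1 was higher by 0.41 (SE 0.07, adjusted p = 0.000996) and 0.40 (SE 0.07, adjusted p = 0.00129). BPGM, which makes 2,3-bisphosphoglycerate, was higher by 0.25 (SE 0.05, adjusted p = 0.00617) and 0.22 (SE 0.05, adjusted p = 0.0147), the latter lost without shControl_TMZ replicate 2 (adjusted p = 0.0512). The ADP-dependent glucokinase ADPGK was lower in DMSO, at -0.21 (adjusted p = 0.00865), and the phosphatase MINPP1 in TMZ, at -0.28 (adjusted p = 0.00642).

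Of 14 genes of pyruvate entry and monocarboxylate transport, 2 were higher and 1 lower in DMSO, and 6 higher and 0 lower in TMZ. Those are 3 and 6 of 14, beside 19.9% and 21.1% of all genes. The TMZ count was 3 without shControl_TMZ replicate 1 or shp105_TMZ replicate 3. Their median difference was 0.14 in DMSO and 0.16 in TMZ. PDP1, the phosphatase that opposes the PDK kinases, was higher by 0.46 (SE 0.06, adjusted p = 0.000114) and 0.43 (SE 0.06, adjusted p = 0.000175). SLC16A7 (MCT2), a monocarboxylate importer, was higher by 0.39 (SE 0.08, adjusted p = 0.00386) and 0.30 (SE 0.08, adjusted p = 0.0160), the latter lost without shControl_TMZ replicate 1 (adjusted p = 0.0707) or shp105_TMZ replicate 3 (0.0562). MPC1, a subunit of the mitochondrial pyruvate carrier, was lower, at -0.23 (SE 0.05, adjusted p = 0.00543) in DMSO. Pyruvate carboxylase, PC, was higher in TMZ by 0.41 (adjusted p = 0.00232) and the dehydrogenase subunit DLD by 0.27 (adjusted p = 0.00827). In these 4 lists the only gene that passed for TMZ against DMSO in either line was HMOX1, heme oxygenase, at -0.30 (SE 0.06, adjusted p = 0.0482) in shp105 cells. That call was lost without any one array except shp105_TMZ replicate 2 (adjusted p = 0.0608 to 0.150).

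**Figure D5:**
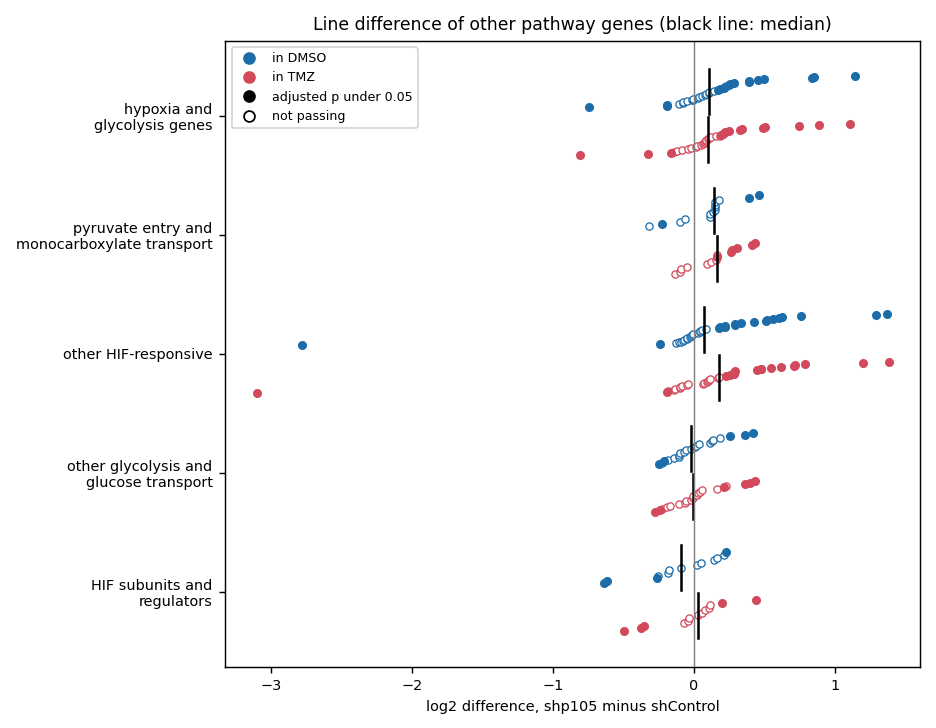
Log2 difference between the lines (horizontal axis) for each gene of the 4 other lists and for the 33 hypoxia and glycolysis genes, in DMSO and in TMZ. Filled points passed at adjusted p under 0.05, open points did not, and black lines are medians; PYGL lies farthest left at -2.78 and -3.10.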

How the data were processed

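RNA of 12 U-87 MG samples was measured on Affymetrix arrays. The deposited values are log2 levels of 54675 probe sets. The submitters' processing notes name RMA and Affymetrix Power Tools; versions, annotation and filters were not given in the sources used here. Probe sets were named from the platform's probe table, and 41097 had 1 symbol. The 1801 with several symbols and 11777 without a name were not used. Symbols were updated through Entrez identifiers to RefSeq (GRCh38.p14), and 54 probe sets without a match kept their symbol. The highest-mean probe set stood for each of 19775 genes, with no filter on dim genes. The precision is limited by the number of arrays.

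limma 3.58.1 (R 4.3.3; lmFit and eBayes, 2-sided) fitted the 4 group means over all 12 arrays. Benjamini-Hochberg adjusted p under 0.05 was called, over all genes, or over all probe sets where single probe sets are compared. SEs are those of the fit. The fit was tested on simulated data.

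The members and the lists were chosen with earlier results of these data known. Every called member is named, with values per array where a called difference reached 0.3 on the log2 scale or where paralogs, or calls under the 2 treatments, differed. Up to 4 called genes of each other list are named, by smallest p. The alternatives were another gene summary, single probe sets, dim genes left out, median centring, quantile normalization, eBayes with trend and robust fitting, array weights, only the compared groups, the replicate number as a block, the spike-in level as a covariate, and each array left out. Python 3.11.15 with matplotlib 3.10.9 drew the plots.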

Additional observations from a re-analysis of the deposited data

How the results depend on the processing

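Of the 17 genes called between the lines in DMSO, the count was 3 with the spike-in mean as covariate and 13 to 17 with each array left out in turn. Of the 14 in TMZ it was 9 when only the compared groups were fitted, 5 with the spike-in covariate and 13 to 14 with an array left out. Other settings gave 14 to 20 in DMSO and 13 to 20 in TMZ. The shares of all genes that passed in each of these settings, and in those that follow, are not given here. For TMZ against DMSO in shp105 cells (1 gene) the count was 0 with the averaged probe sets of a gene, median centring, array weights, only the compared groups, the replicate block or the spike-in covariate. It was 3 with genes below the median level left out (BNIP3, EGLN1 and PDK1, all lower) and 5 with trend and robust fitting (these, LDHA and P4HA1, all lower). With an array left out it was 0 to 1. The 1 was PDK1, lower without shp105_TMZ replicate 1 (adjusted p = 0.0469), and not EGLN1. In shControl cells (0 genes) it was 1 with the dim genes left out (VEGFA, lower) and 3 with trend and robust fitting (PFKP higher, BNIP3 and VEGFA lower), and 0 to 0 with an array left out. The difference of responses gave 0 in each fit run, 0 to 0 with an array left out, and cannot be fitted with only the compared groups. Leaving out dim genes tests fewer genes and fitting only the compared groups uses fewer arrays; for the other settings the cause was not tested.

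Single probe sets reversed 6 called values. They were 0.16 for EGLN1 (TMZ response in shp105 cells) and 0.055 for EGLN1 (lines in TMZ), -0.063 for P4HA1 and 0.063 for VEGFA (lines in DMSO), and -0.042 for ANKRD37 and -0.095 for PDK1 (lines in TMZ). None of the 6 passed, and those of EGLN1 (0.16), P4HA1 and ANKRD37 come from probe sets with means of 2.77 to 3.69, within the background controls (2.51 to 4.06), where a sign says nothing about the gene. With averaged probe sets the calls of P4HA1, VEGFA and KDM3A in DMSO, of EGLN1 and ANKRD37 in TMZ and of EGLN1 for TMZ against DMSO were lost. With only the compared groups fitted those of LDHA, GPI and VEGFA in DMSO were lost. So were those of ENO2, BNIP3, P4HA2, HK2 and KDM3A in TMZ and of EGLN1 for TMZ against DMSO. With p-values over all probe sets those of GPI, KDM3A, LDHA and VEGFA in DMSO, of KDM3A in TMZ and of EGLN1 for TMZ against DMSO were lost. Same-numbered arrays deviated together by -0.11 to 0.12, so the labels' numbers were not treated as pairs. With the replicate block 16 genes were called between the lines in DMSO and 13 in TMZ, and 29 of the 32 called values kept their call. Median centring and quantile normalization moved the median of all genes by less than 0.1. Differences of the size of the SE, a median of 0.06, cannot be resolved with 3 arrays a group, nor can EGLN3, which lies near the background controls. Of the genes named from the other lists, HKDC1 (0.12), PFKFB2 (0.17) and MPC1 (-0.16) in DMSO and PPARGC1A (0.22) in TMZ lost their call with averaged probe sets. HIF1AN in DMSO and HIF1A and PPARGC1A in TMZ lost it when only the compared groups were fitted.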
